A study of Bos taurus with 24 samples.

Results

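The genes of cholesterol synthesis, uptake and sterol sensing were followed in bovine muscle satellite cells, which repair and enlarge skeletal muscle fibres. Members were chosen by gene symbol from textbook roles, with earlier results of these data known. Of the 32 chosen symbols 31 are listed in the deposited table of 11937 genes, each as 1 gene. The listed members comprise 18 synthesis enzymes, the 5 regulators INSIG1, INSIG2, SREBF1, SREBF2 and SCAP, the 3 sterol carriers STARD4, NPC1 and NPC2, the storage enzyme SOAT1, the oxysterol-forming enzyme CH25H, the liver X receptors NR1H2 and NR1H3, and MYLIP. ABCA1, the cholesterol exporter, is not among the genes listed, so export is not described. All 31 listed members passed the filter on low counts, and the lowest count of a member in any library was 12, for TM7SF2.

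RNA came from satellite cells of the longissimus dorsi muscle, labelled WT, kept with fibroblasts in plates with 0.4 µm pores (coculture) or without them (monoculture). The 6 groups of 4 libraries are coculture and monoculture in proliferation, coculture and monoculture at 24 h, and coculture and monoculture at 72 h of differentiation. All groups held the same mix of 3 satellite cell lines at passage 3, plated at 8000 cells per cm2. The fibroblasts were at passage 10. The labels also carry a code of unstated meaning, 1 for monoculture at 24 h and 72 h and 2 for all other libraries. It cannot be told apart from culture at 24 h and 72 h but is the same in both cultures in proliferation. In monoculture the code changes between proliferation and 24 h, so that step cannot be told apart from it either. Cells grew for 5 days with 20% fetal bovine serum, and a change to 10% horse serum started differentiation. Whether replicates were separate cultures is not in the labels, and the p-values therefore speak only for the spread among these libraries, which may be technical.

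Cells build cholesterol from acetyl-CoA through mevalonate, squalene and lanosterol. The transcription factor SREBF2, held in the endoplasmic reticulum by SCAP and the INSIG proteins while sterol is plentiful, is released when sterol is short and switches on the enzymes, INSIG1 and STARD4. Oxysterols such as the product of CH25H hold SREBF2 back through the INSIG proteins and act as ligands of the liver X receptors, whose target MYLIP marks lipoprotein receptors for breakdown. Membranes of muscle cells need cholesterol, and cells can make it or take it up from serum.

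Levels are CPM, counts scaled to a common library total with the TMM method. Differences are log2 fold changes with standard errors (SE) from edgeR's quasi-likelihood test. A gene is called at a Benjamini-Hochberg adjusted p under 0.05 over all 11937 genes. Library totals ran from 11.5 to 34.96 M counts. Of the fixed satellite cell markers 5 of 11 are listed, and PAX7, MYF5, MYOD1 and MYOG are not among the genes listed, so the labelled cell type could not be checked with its defining genes. The summed level of those 5 was 217 to 235 CPM in coculture and 171 to 180 CPM in monoculture in proliferation, 216 to 248 against 301 to 316 CPM at 24 h, and 257 to 270 against 422 to 456 CPM at 72 h. The 5 did not move together: in proliferation DES, a muscle filament protein, was called higher in coculture, at a mean of 125 against 72.1 CPM, and MET lower, while at 72 h ITGA7, an integrin, was called lower, at 38.5 against 155 CPM, and SDC4 higher. Markers of fibroblasts and fibro-adipogenic progenitors, 9 of 10 listed, summed to 62945 to 64260 CPM in coculture and 52995 to 57148 CPM in monoculture in proliferation. At 24 h they summed to 85966 to 96995 against 89433 to 98595 CPM, and at 72 h to 113620 to 117593 against 119904 to 137775 CPM. Collagen genes make up nearly all of these sums, and the other markers were mixed. In proliferation PDGFRA, LUM and FAP were called lower in coculture, THY1 and PDGFRB were called higher, and DCN was not called. At 24 h and 72 h PDGFRA and DCN were called higher in coculture and PDGFRB lower. LUM was called higher and FAP lower at 24 h, and THY1 was not called at either time. At 72 h PDGFRA averaged 121 CPM in coculture and 46.3 CPM in monoculture, and DCN 508 and 424 CPM, against the direction of the sum. PDGFRB averaged 160 and 218 CPM at 72 h. Their part in the results below was not tested, and a change in the mix of cells cannot be told apart from a change in RNA per cell.

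In proliferating cells the synthesis enzymes were lower in coculture along most of the pathway. Of the 18 enzymes 14 fell, none rose and 4 were not called, where 28.7% of all genes fell and 30.3% rose. The median log2 fold change was -0.54 over the enzymes and 0.0040 over all genes. In each of the 14 the coculture libraries all lay below the monoculture libraries, a separation that 53.0% of all genes showed in either direction.

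The steepest falls stood at the entry to the mevalonate pathway and around the sterol ring. HMGCS1, the HMG-CoA synthase, had 60.1, 58.9, 58.7 and 57.3 CPM in coculture, against 149, 174, 155 and 161 CPM in monoculture. The lowest monoculture library was thus far above every coculture library, and the log2 fold change was -1.44 ± 0.0507 (SE, adjusted p = 2.92e-19), or 2.72-fold lower. SQLE, the squalene epoxidase that opens the sterol branch (chr14:15144672-15167610, on the deposited table's own build, which the labels do not name), had 19.6, 19.3, 19.1 and 19.2 CPM in coculture, against 47.9, 52.8, 48.9 and 47.9 CPM in monoculture. The coculture libraries were nearly level with each other, and SQLE was 2.56-fold lower, a log2 fold change of -1.36 ± 0.0596 (adjusted p = 6.17e-17). MSMO1, the oxidase that starts removal of the later methyl groups, after CYP51A1 has acted (chr17:517453-534143), had 27.0, 28.5, 31.3 and 29.4 CPM in coculture and 67.5, 71.8, 61.3 and 58.8 CPM in monoculture. It fell in coculture by 1.16 ± 0.0583 on the log2 scale (adjusted p = 1.54e-15), with no overlap of the libraries.

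Read in pathway order, the falls were uneven. ACAT2, the thiolase that joins acetyl-CoA units, fell by 0.12 on the log2 scale, the smallest of the called falls. The mevalonate kinases MVK and PMVK and the decarboxylase MVD were not called: their log2 fold changes were -0.05 ± 0.108, -0.20 ± 0.132 and 0.06 ± 0.0707, and their libraries overlapped. Falls resumed with the isoprenoid enzymes, at -0.74 for the isomerase IDI1, -0.56 for farnesyl diphosphate synthase FDPS and -0.73 for squalene synthase FDFT1. Past SQLE, the lanosterol synthase LSS stood at -0.51 and the lanosterol demethylase CYP51A1 at -0.89. TM7SF2, a sterol reductase of the next step, was not called at -0.07 ± 0.269, and its level was low, at 1.08 ± 0.143 CPM in coculture and 1.20 ± 0.365 CPM in monoculture (SD, n = 4 each). The last enzymes fell less than MSMO1, with log2 fold changes of -0.33 for the dehydrogenase NSDHL, -0.69 for the ketoreductase HSD17B7, -0.36 for the isomerase EBP, -0.61 for the desaturase SC5D and -0.49 for the reductase DHCR7.

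**Figure D1:**
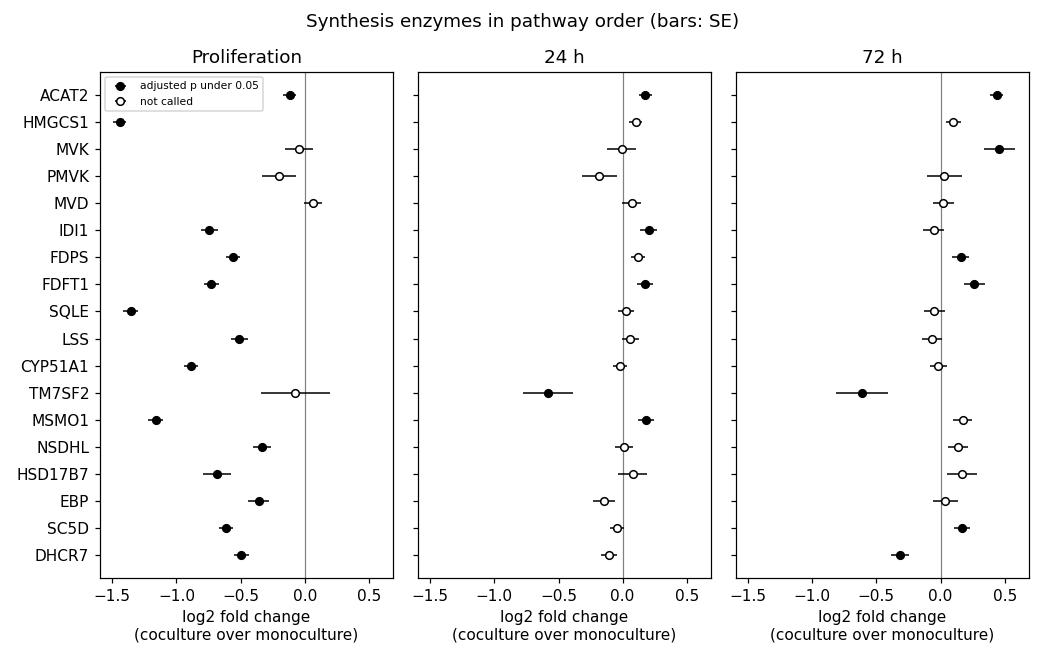
Log2 fold change of coculture over monoculture (x axis) for the 18 synthesis enzymes in pathway order (y axis, first step at the top), in proliferation, at 24 h and at 72 h; bars are SE and filled points passed an adjusted p under 0.05. In proliferation 14 points are filled and all lie left of 0, with HMGCS1 at -1.44, while at 24 h and 72 h most points lie near 0 and TM7SF2 lies left at -0.58 and -0.62.

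The regulators did not move as a block. INSIG1, which holds SCAP in the endoplasmic reticulum and is itself a target of SREBF2 (chr4:117125433-117138560), had 15.3, 13.1, 13.8 and 14.6 CPM in coculture, against 26.8, 29.7, 28.3 and 27.8 CPM in monoculture. The groups did not overlap, and the log2 fold change was -0.998 ± 0.0931 (adjusted p = 4.06e-10). Its paralog INSIG2 fell by 0.50 on the log2 scale. SCAP, the escort that carries SREBF2 to the Golgi, went the other way, with 86.3, 88.6, 89.0 and 90.4 CPM in coculture and 67.4, 67.3, 66.9 and 68.7 CPM in monoculture, a log2 fold change of 0.39 ± 0.0412 with no overlap. SREBF2 itself fell by only 0.14 on the log2 scale (adjusted p = 0.0136), and SREBF1, more tied to fatty acid genes, was not called at -0.14 ± 0.0719. The SREBF1 call depended on the method. It was called lower with scaling by library totals alone (log2 -0.21, adjusted p = 0.0116) and in the authors' deposited table (adjusted p = 0.0317).

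Sterol carriers and storage were lower in proliferating coculture, and CH25H and NR1H2 higher. STARD4, a cytosolic sterol carrier, had 7.14, 7.001, 8.98 and 8.94 CPM in coculture and 13.2, 13.5, 12.03 and 11.8 CPM in monoculture. That is 1.60-fold lower, a log2 fold change of -0.68 ± 0.101 (adjusted p = 1.28e-06), with no overlap. NPC1 and NPC2, which pass cholesterol out of lysosomes, fell by 0.17 and 0.19 on the log2 scale, the NPC1 libraries overlapping, and SOAT1, which esterifies cholesterol for storage, by 0.22. CH25H, which makes an oxysterol from cholesterol (chr26:10940264-10944539), had 4.20, 3.69, 4.41 and 4.35 CPM in coculture, against 1.61, 1.35, 1.00 and 1.76 CPM in monoculture. Every coculture library was above every monoculture library, with a 2.83-fold rise, log2 1.503 ± 0.201 (adjusted p = 2.56e-07). The liver X receptors NR1H2 and NR1H3 rose by log2 0.36 and 0.26, the NR1H3 libraries overlapping and its call lost with scaling by library totals alone (log2 0.19, adjusted p = 0.102), and MYLIP was not called at 0.09 ± 0.144. Over all 31 members 25 were called in proliferation, 4 higher and 21 lower, where 59.0% of all genes were called.

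Measures of RNA composition differed between the same groups. The share of nuclear ribosomal RNA in the counts was 0.742 to 1.07% in proliferating coculture and 1.23 to 1.40% in monoculture, and mitochondrial protein-coding transcripts took 1.60 to 1.70% and 2.00 to 2.10%. All 8 proliferation libraries carry sequencing lane 6 in their names. The part of RNA composition in the falls was not tested.

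**Figure D2:**
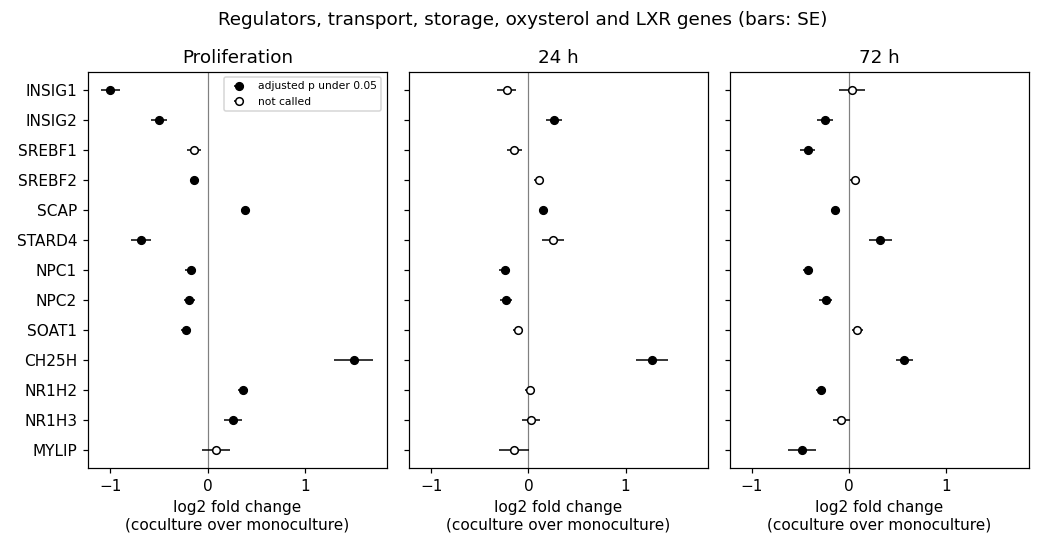
Log2 fold change of coculture over monoculture (x axis, bars SE) for the 13 members that are not synthesis enzymes (y axis), in proliferation, at 24 h and at 72 h, filled where the adjusted p was under 0.05. CH25H lies right of 0 at every time, at 1.503, 1.27 and 0.57, while INSIG1 lies at -0.998 in proliferation and near 0 at 72 h.

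At 24 h of differentiation the enzyme difference was small. Of the 18 enzymes 4 rose and 1 fell in coculture, where 11.5% of all genes rose and 12.2% fell, and the enzymes' median log2 fold change was 0.04, against -0.0027 for all genes. IDI1 had 17.7, 17.5, 16.1 and 18.4 CPM in coculture and 14.8, 16.1, 14.1 and 15.6 CPM in monoculture, a log2 fold change of 0.20 ± 0.0664 (adjusted p = 0.0239). MSMO1 had 39.2, 34.8, 34.0 and 35.5 CPM against 32.9, 29.6, 32.3 and 32.0 CPM, a log2 fold change of 0.18 ± 0.0601 (adjusted p = 0.0269). In both genes the groups lay close together, IDI1 with its lowest coculture library level with the highest in monoculture at the printed precision. ACAT2 and FDFT1 rose by log2 0.18 and 0.17, the FDFT1 libraries overlapping. TM7SF2 (chr29:43317941-43322617) moved against the others, with 2.45, 2.54, 2.98 and 2.16 CPM in coculture and 3.83, 3.51, 4.58 and 3.14 CPM in monoculture, 1.496-fold lower (log2 -0.58 ± 0.193, adjusted p = 0.0268). HMGCS1 and SQLE were not called, at log2 0.10 ± 0.0521 and 0.02 ± 0.0608.

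Among the other members at 24 h, CH25H stood apart. It had 8.13, 6.20, 6.59 and 5.63 CPM in coculture, against 3.39, 2.42, 2.63 and 2.57 CPM in monoculture, a 2.41-fold rise (log2 1.27 ± 0.162, adjusted p = 5.92e-07) with no overlap, as for 24.4% of all genes. INSIG2 rose by log2 0.26 and SCAP by 0.15, while NPC1 and NPC2 fell by 0.25 and 0.23 on the log2 scale; the libraries of INSIG2 and NPC2 overlapped. INSIG1 was not called at -0.22 ± 0.1004. In all, 10 of 31 members were called, 7 higher and 3 lower, where 23.8% of all genes were called.

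The 24 h calls changed when single libraries were left out. Members called dropped to 5 without coculture replicate 1 and to 6 without coculture replicate 4. Calls over all genes in those settings are not given, so the drop is not shown to be particular to the members. Coculture replicates 3 and 4 carry lane 7 in their library names and the other 24 h libraries lane 6. The names with lane 7 also differ from those with lane 6 in other codes of unstated meaning. These codes cannot be told apart from lane, here or at 72 h. All genes called were 2836 in the fit of all 24 libraries and 1746 within lane 6 alone. Within lane 6 alone 3 members were called, CH25H at log2 1.38, SCAP at 0.17 and NPC1 at -0.27. With lane as a term in the model 4 were called, these 3 and MSMO1, at log2 1.39, 0.17, -0.27 and 0.22. Mitochondrial protein-coding transcripts took 2.14 to 2.36% of counts in coculture and 2.81 to 3.26% in monoculture at this time, and their part was not tested.

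At 72 h enzymes moved in both directions and by little. Of the 18 enzymes 5 rose and 2 fell in coculture, where 25.1% of all genes rose and 25.4% fell, and the median log2 fold change was 0.07, against -0.0014 for all genes. ACAT2 had 68.3, 85.9, 74.3 and 79.9 CPM in coculture and 58.5, 58.6, 54.9 and 55.5 CPM in monoculture, 1.35-fold higher (log2 0.44 ± 0.0513, adjusted p = 2.46e-08), with no overlap. Of all 31 members 13 had groups that did not overlap, as did 42.0% of all genes. MVK, the first mevalonate kinase, had 7.11, 8.35, 6.00 and 5.97 CPM in coculture and 4.79, 6.04, 4.31 and 4.66 CPM in monoculture. The groups overlapped through monoculture replicate 2, and the log2 fold change was 0.46 ± 0.123 (adjusted p = 0.0026). FDFT1, SC5D and FDPS rose by log2 0.26, 0.17 and 0.16. TM7SF2 had 1.78, 1.85, 2.85 and 2.56 CPM in coculture and 4.98, 2.71, 2.64 and 3.40 CPM in monoculture, overlapping groups with a log2 fold change of -0.62 ± 0.202 (adjusted p = 0.0121). DHCR7, the last enzyme of the list, fell by 0.32 on the log2 scale. HMGCS1 and SQLE were again not called, at log2 0.10 ± 0.0612 and -0.05 ± 0.0826.

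Of the regulators at 72 h, SREBF1 fell by 0.43, INSIG2 by 0.25 and SCAP by 0.14 on the log2 scale, the last with 125, 121, 127 and 125 CPM in coculture and 138, 136, 143 and 133 CPM in monoculture. NPC1, NPC2, NR1H2 and MYLIP fell by 0.42, 0.24, 0.29 and 0.49, and STARD4 rose by 0.32, all on the log2 scale; the libraries of MYLIP and STARD4 overlapped. CH25H had 65.3, 65.3, 63.3 and 65.0 CPM in coculture and 49.1, 43.4, 32.9 and 48.9 CPM in monoculture. The coculture libraries lay within a narrow band above all of monoculture, and CH25H was 1.48-fold higher (log2 0.57 ± 0.0832, adjusted p = 1.22e-06). In all, 16 of 31 members were called, 7 higher and 9 lower, where 50.5% of all genes were called.

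Lane and culture coincide at 72 h, with lane 7 holding every coculture library and lane 6 every monoculture library. No value within a lane could be had. With lane as a term in the model, estimated from the 24 h coculture libraries of both lanes, 5 members were called, ACAT2 at log2 0.40, SC5D at 0.30, SREBF1 at -0.52, NPC1 at -0.47 and CH25H at 0.80. All genes called were 3402 with that term and 6029 without it. Scaling by library totals alone moved the median of all genes at 72 h by 0.13 (log2) and gave 13 members higher and 6 lower, and 9 enzymes higher and 2 lower. HMGCS1 was then called higher, at log2 0.23 (adjusted p = 0.00474), as were MSMO1, NSDHL, HSD17B7, SREBF2 and SOAT1, while SCAP, INSIG2 and NPC2 were no longer called. Without the libraries with most nuclear ribosomal RNA, which were coculture replicate 1 and monoculture replicates 3 and 4 at 72 h and coculture replicate 2 at 24 h, 9 members were called at 72 h, 2 higher and 7 lower. Shares of all genes called with scaling by library totals and without those libraries are not given. These 2 sets of counts therefore show nothing particular to the members. Mitochondrial protein-coding transcripts took 1.76 to 1.91% of counts in coculture and 2.19 to 2.55% in monoculture at 72 h, and their part was not tested.

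The change of the coculture effect over time was tested directly. Monoculture changed its label code between proliferation and 24 h, so changes counted from proliferation cannot be told apart from that code. Lane 7 held only coculture libraries, coculture replicates 3 and 4 at 24 h and all of coculture at 72 h. Lane is therefore mixed with these changes. From proliferation to 24 h the log2 difference between coculture and monoculture shifted upward in 13 of 18 enzymes and downward in none, where 24.3% of all genes shifted up and 26.2% down. The shift was 1.54 ± 0.0725 for HMGCS1 (adjusted p = 1.24e-15), 1.38 ± 0.0852 for SQLE (adjusted p = 6.14e-13) and 1.34 ± 0.0837 for MSMO1 (adjusted p = 6.18e-13). INSIG1, INSIG2 and STARD4 shifted up by log2 0.78, 0.76 and 0.93, and SCAP and NR1H2 down by 0.24 and 0.34. For CH25H the shift was not called, at -0.23 ± 0.268. Over all members 19 of 31 were called, where 50.5% of all genes were.

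Between 24 h and 72 h only ACAT2 and MVK among the enzymes shifted, up by log2 0.26 ± 0.0718 and 0.47 ± 0.166. HMGCS1 was not called, with adjusted p = 0.998. The other called shifts were downward, at -0.70 ± 0.184 for CH25H (adjusted p = 0.00548), -0.51 for INSIG2, -0.28 for SREBF1, -0.30 for SCAP and -0.31 for NR1H2, which makes 2 members up and 5 down of 31, where 23.7% of all genes were called. With scaling by library totals alone the split was 4 up and 2 down, and the share of all genes called is not given for it. Over the whole span from proliferation to 72 h, 14 of 18 enzymes shifted up and none down, where 31.3% of all genes shifted up. All 31 members gave 18 up and 7 down, where 62.3% of all genes were called. Library totals alone gave 20 up and 3 down, again with no share of all genes given. CH25H shifted down by 0.93 ± 0.222 on the log2 scale, and the fold between its groups was thus smaller at 72 h although its level was far higher.

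**Figure D3:**
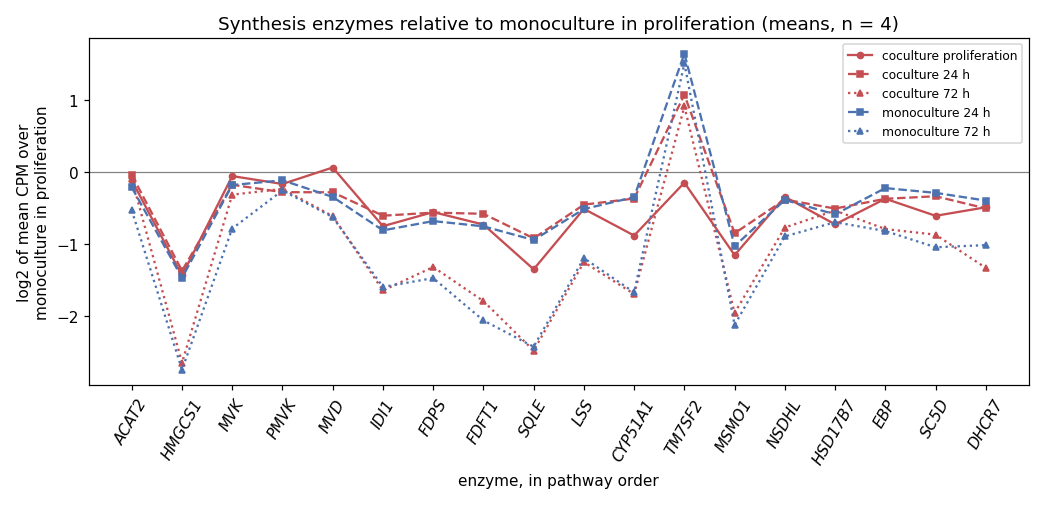
Group mean level of each of the 18 enzymes in pathway order (x axis), as log2 over the mean of proliferating monoculture (y axis, 0 line), for the other 5 groups. Proliferating coculture lies below 0 at most steps. It lies close to both 24 h groups at some steps, such as LSS and NSDHL, and apart from them at others. At CYP51A1 it lies at -0.89, against -0.37 in coculture and -0.35 in monoculture at 24 h. Both 72 h groups lie below all other groups at 14 of 18 steps, the exceptions being ACAT2, PMVK, HSD17B7 and TM7SF2. TM7SF2 lies above 0 at 24 h and 72 h.

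The course of the enzymes in each culture is given side by side, since the proliferating monoculture libraries enter both the coculture difference and the monoculture course. The step from proliferation to 24 h in monoculture cannot be told apart from the label code. In coculture, time is mixed with sequencing lane. Summed over the 18 enzymes, the level in coculture was 461 ± 12.03 CPM in proliferation, 505 ± 13.9 CPM at 24 h and 310 ± 6.94 CPM at 72 h (SD, n = 4 each). In monoculture it was 764 ± 23.3, 484 ± 4.68 and 283 ± 4.72 CPM. The sum was highest in proliferating monoculture, the cultures lay close at 24 h, and both were lower at 72 h.

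**Figure D4:**
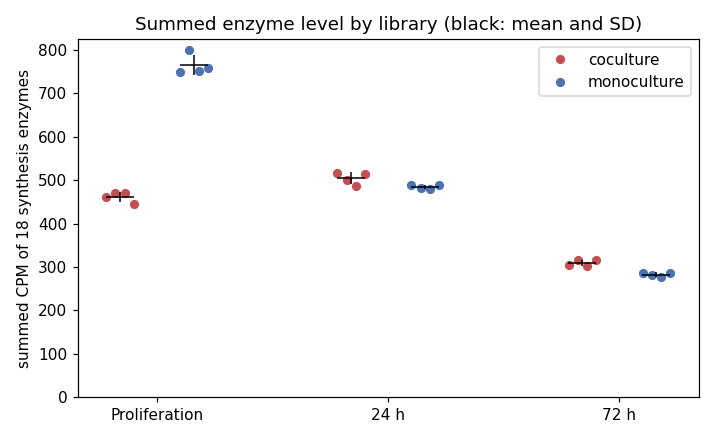
Summed level of the 18 synthesis enzymes (y axis, CPM, from 0) in each library (points), by time and culture (x axis, coculture left of monoculture), with the mean and SD of each group in black. Proliferating monoculture averages 764 CPM, above every other group, and both 72 h groups lie lowest, at 310 CPM in coculture and 283 CPM in monoculture.

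In monoculture 15 of 18 enzymes fell at 24 h relative to proliferation and 1 rose, where 34.2% of all genes fell and 34.3% rose; the median log2 fold change was -0.39. HMGCS1 had 61.8, 56.1, 54.2 and 57.7 CPM at 24 h in monoculture, against the proliferation values given above, 2.78-fold lower (log2 -1.48 ± 0.0507, adjusted p = 1.69e-20). MSMO1 fell by 1.03, SQLE by 0.95 and IDI1 by 0.81 on the log2 scale. TM7SF2 was the riser, with 3.83, 3.51, 4.58 and 3.14 CPM at 24 h and 1.55, 0.948, 1.48 and 0.833 CPM in proliferation, a log2 fold change of 1.67 ± 0.221. Over all members 27 of 31 were called, where 68.5% of all genes were.

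In coculture the same interval looked different. HMGCS1 was not called, with 63.0, 60.02, 59.2 and 63.8 CPM at 24 h and a log2 fold change over proliferation of 0.07 ± 0.0520, and the enzymes' median was 0.07. Of the 18 enzymes 5 rose and 1 fell, where 21.0% of all genes rose and 22.2% fell. The rises were TM7SF2 at log2 1.16 ± 0.234, CYP51A1 at 0.52 ± 0.0567, SQLE at 0.43 ± 0.0627, MSMO1 at 0.31 ± 0.0606 and SC5D at 0.28 ± 0.0567, and MVD fell by 0.34. Over all members 9 rose and 5 fell, where 43.2% of all genes were called and 39.7% did not overlap between the times. With scaling by library totals alone 9 members rose and 9 fell. The share of all genes called in that setting is not given, so this count shows nothing particular to the members.

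Between 24 h and 72 h the enzymes fell in both cultures. In coculture 13 of 18 fell and none rose, with a median of -0.65, where 23.8% of all genes fell. In monoculture 15 of 18 fell and none rose, with a median of -0.64, where 26.6% of all genes fell. SQLE had 8.65, 7.71, 8.85 and 10.0 CPM at 72 h in coculture against 26.6, 28.4, 23.5 and 25.6 CPM at 24 h, a log2 fold change of -1.56 ± 0.0704 (adjusted p = 7.23e-18). In monoculture it had 9.96, 8.52, 8.76 and 9.31 CPM at 72 h against 25.0, 25.2, 26.9 and 25.4 CPM at 24 h, a log2 fold change of -1.48 ± 0.0712 (adjusted p = 1.57e-17). The times did not overlap in either culture, as for 46.3% of all genes in coculture and 41.3% in monoculture. CYP51A1 fell by 1.33 in both, HMGCS1 by 1.28 in both and FDFT1 by 1.22 in coculture and 1.31 in monoculture, all on the log2 scale. PMVK, TM7SF2 and HSD17B7 were not called in either culture, nor were ACAT2 and MVK in coculture. Over all members 21 of 31 were called in coculture, where 48.2% of all genes were, and 26 of 31 in monoculture, where 53.9% were.

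The regulators followed separate courses over the same times. SREBF2 had 70.9, 66.0, 65.9 and 65.9 CPM at 72 h in coculture against 151, 157, 164 and 162 CPM at 24 h, a log2 fold change of -1.24 ± 0.0486 (adjusted p = 2.21e-19). In monoculture it had 68.0, 64.8, 61.7 and 63.2 CPM at 72 h against 137, 148, 161 and 142 CPM at 24 h, a log2 fold change of -1.19 ± 0.0489 (adjusted p = 3.24e-19). Before that it had risen at 24 h over proliferation, by log2 0.48 in coculture and 0.23 in monoculture, so its level did not follow the enzymes in monoculture over that step. INSIG1 fell at 72 h relative to 24 h by 1.13 in coculture and 1.39 in monoculture. SCAP rose by log2 0.30 and then 0.19 in coculture, and by 0.53 and then 0.49 in monoculture. INSIG2 rose by log2 0.37 and then 0.20 in coculture, whereas in monoculture it fell by 0.39 at 24 h and rose by 0.71 at 72 h.

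CH25H rose more than any other member between 24 h and 72 h in both cultures. It rose 9.83-fold in coculture (log2 3.30 ± 0.104, adjusted p = 7.33e-22) and by log2 4.00 ± 0.125 in monoculture (adjusted p = 4.72e-22), with no overlap of the times in either. At 24 h over proliferation the rise was log2 0.69 ± 0.147 in coculture and 0.92 ± 0.222 in monoculture. Of the carriers, NPC2 fell at 24 h by 0.69 in coculture and 0.64 in monoculture, NPC1 fell by 0.28 and 0.21 and then rose at 72 h by 0.27 and 0.45, and STARD4 fell by 1.01 at 24 h in monoculture but was not called in coculture, at -0.08 ± 0.108.

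**Figure D5:**
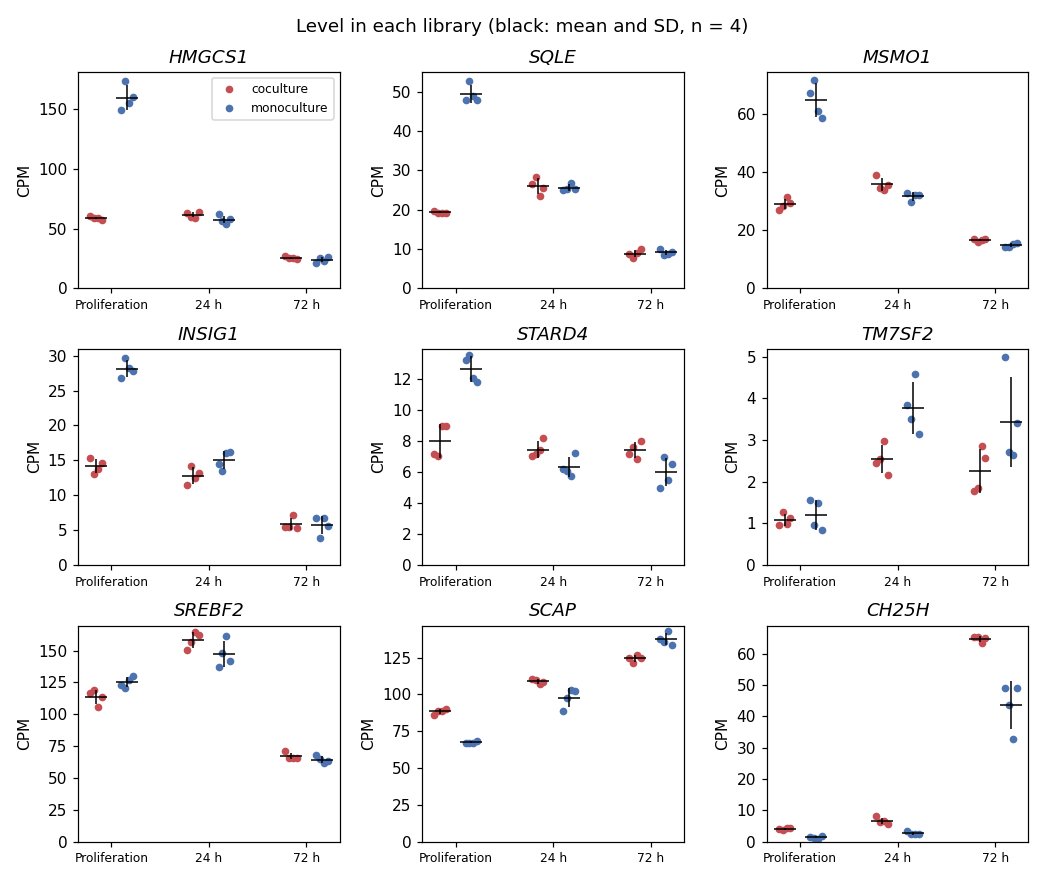
Level in CPM of selected members in each library (points), by time and culture, with coculture left of monoculture at each time. The proliferating monoculture libraries of HMGCS1 stand at 149 to 174 CPM above all other groups, and CH25H climbs to 63.3 to 65.3 CPM in coculture and 32.9 to 49.1 CPM in monoculture at 72 h.

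How far members ran together was described over the 24 libraries, which fall into 6 groups and share the group means, so the values carry no test. Against the mean standardised log2 level of the other enzymes, Pearson's r was 0.98 for HMGCS1, IDI1, FDFT1, SQLE and MSMO1, 0.97 for FDPS and 0.96 for LSS. It was 0.63 for ACAT2, 0.59 for HSD17B7, 0.42 for PMVK and -0.52 for TM7SF2. Among non-enzymes INSIG1 stood at 0.96 and SREBF2 at 0.82, while CH25H stood at -0.94 and SCAP at -0.92. Within groups, after each group mean was removed, the median r between pairs of enzymes was 0.03, against 0.77 with the group means kept, so the likeness lies between groups and not among replicates. Of the genes outside the membership nearest to the enzyme mean, CDS2, an enzyme of phospholipid synthesis, had r = 0.97, ZNF367, a zinc finger protein, 0.97, and DLD, a mitochondrial dehydrogenase subunit, 0.96. IPO7, a nuclear import receptor, DEK, a chromatin protein, RAD21, a cohesin subunit, and TMEM65, a mitochondrial membrane protein, had 0.96 each. In proliferation these fell in coculture by 0.25, 0.61, 0.27, 0.33, 0.44, 0.22 and 0.56 on the log2 scale, in the order named. They were picked for likeness over the same libraries, so these falls only describe the choice and are no further result.

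A wider list of sterol and isoprenoid genes that are not members was counted for comparison, with 49 of its 52 symbols listed. In proliferation 15 rose and 15 fell in coculture, with a median log2 fold change of 0.03, and the 61.2% called lay near the 59.0% of all genes, so the count shows nothing particular to these genes. The falls were led by GRAMD1C at -0.53, which belongs to a family of sterol transfer proteins, PDSS2 at -0.52, a subunit of the enzyme that makes the coenzyme Q side chain, and SCARB2 at -0.49, a lysosomal membrane protein. The rises were led by TSPO at 0.50, a mitochondrial outer membrane protein, NR1D1 at 0.48, a nuclear receptor of the clock, and LRP1 at 0.46, an endocytic receptor. At 24 h 4 rose and 7 fell, 22.4% called against 23.8% of all genes. At 72 h 11 rose and 12 fell, 46.9% called against 50.5% of all genes, with LBR, a nuclear envelope protein with sterol reductase activity, at 0.89 and the prenyl protein protease RCE1 at -0.86.

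The authors' deposited table of coculture over monoculture gave the same sign for 31 of 31 members at each time. It called 26 members in proliferation, 4 higher and 22 lower, 8 at 24 h and 13 at 72 h. Of all its genes the authors' deposited table called 57.2% in proliferation, 21.2% at 24 h and 42.8% at 72 h. No log2 fold change in the authors' deposited table differed from the values above by more than 0.037 in proliferation, 0.0066 at 24 h or 0.0067 at 72 h.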

How the data were processed

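The count table deposited by the authors holds whole numbers of reads per gene and library. The submitters' processing notes name STAR, RSEM, FastQC and DESeq2 with no version. A genome build is named neither there nor in the labels. Of 36 library columns 24 match the labels, and the other 12 were not used. Per the file headers, the authors' 3 comparison tables hold a mean signal, log2 fold changes with SE, a test score and p-values; only their log2 fold changes and adjusted p-values are quoted. Every gene listed has at least 6 counts in every library, so genes silent in any library are not seen. Replicates were compared by chi-square, which was 2.16 to 144 per degree of freedom, so no library was a plain copy of another. The comparison cannot tell whether libraries came from the same culture or RNA.

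Counts were fitted in R 4.3.3 with edgeR 4.0.16 (TMM, 1 mean per group, 24 libraries, 18 residual degrees of freedom, quasi-likelihood F test); filterByExpr removed 0 genes. P-values were adjusted by Benjamini-Hochberg over 11937 genes. Each SE was obtained by dividing the absolute log2 fold change by the root of F. DESeq2 1.42.0 served as an alternative fit. The package limma 3.58.1 was loaded with edgeR, and no limma fit was made. The scripts were tested on simulated data. The members, the wider list and the rules were chosen with earlier results of these data known. Full values go to the 3 called enzymes with the largest change per culture comparison and to other called members past log2 0.5; from the wider list, the largest called changes are named. The 8 genes most like the mean enzyme level over 24 libraries were to be named. Genes these rules reach that are not named are not reported here. Levels are not compared between genes, since transcript lengths were not used here.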

Additional observations from a re-analysis of the deposited data

Results flagged for a closer look

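Within groups, the gap of an extreme library to its nearest neighbour exceeded Dixon's critical value in 3 of the 66 groups of 4 libraries tested, about the 1 in 20 that chance gives. They were ACAT2 in coculture proliferation replicate 4, low at 71.3 CPM, INSIG1 in coculture 72 h replicate 3, high at 7.22 CPM, and CH25H in coculture 72 h replicate 3, low at 63.3 CPM.

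The coculture effect differed between times for named members, by edgeR's test of the change itself. From proliferation to 24 h the log2 fold change shifted by 0.29 for ACAT2, 1.54 for HMGCS1, 0.95 for IDI1, 1.38 for SQLE, 1.34 for MSMO1, 0.78 for INSIG1 and 0.93 for STARD4. From 24 h to 72 h it shifted by 0.26 for ACAT2, 0.47 for MVK and -0.70 for CH25H. From proliferation to 72 h it shifted by 0.56 for ACAT2, 1.54 for HMGCS1, 0.50 for MVK, 0.69 for IDI1, 1.31 for SQLE, 1.33 for MSMO1, 1.03 for INSIG1, 1.00 for STARD4 and -0.93 for CH25H.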

How the results depend on the processing

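No called member changed sign in any of the 195 settings run for the counts of members called. Of 1154 settings run for single named genes 33 lost the threshold and 0 reversed. Many of these settings only left out a single library, and the setting without the filter repeats the main fit, so they are not independent checks. At 24 h the members called numbered 10, against 4 with lane as a covariate and 3 within lane 6 alone; at 72 h they numbered 16, against 5 with lane as a covariate and 9 when the 4 libraries with most nuclear ribosomal RNA were left out. The cause was not tested. All genes called were 6029 at 72 h and 3402 with the lane covariate, and 2836 at 24 h and 1746 within lane 6. For all other alternative settings in the text, calls over all genes are not given. Those counts of members therefore show nothing particular to them. Leaving out each library in turn gave 23 to 25 members called in proliferation, 5 to 9 at 24 h and 13 to 16 at 72 h; 19 to 20, 5 to 8 and 24 to 27 for the changes of the effect; 26 to 27 and 25 to 27 for monoculture over time; and 14 to 16 and 20 to 21 for coculture over time.

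With the replicate number as a block, 24, 9 and 15 members were called for coculture over monoculture in proliferation, at 24 h and at 72 h; 19, 7 and 25 for the changes of the effect; and 27, 26, 14 and 21 for the time steps. Calls over all genes with that block are not given. The replicate numbers do not pair the libraries. Deviations of same-numbered libraries correlated from -0.14 to 0.12 over 28 pairs, and 2 of 24 libraries correlated best with their own number.

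Low counts limit TM7SF2, CH25H, MYLIP and PMVK, whose lowest counts in a library were 12, 19, 48 and 54.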
